A study of Mus musculus with 24 samples.

Results

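The cadherin and protocadherin genes of the deposited table are the 71 gene symbols that begin with Cdh and a digit or with Pcdh, of 19409 symbols in all, each with 1 row. They comprise 5 classical type I cadherins, 13 classical type II cadherins, 5 other Cdh genes, 36 clustered protocadherins (2 in the alpha, 16 in the beta and 18 in the gamma cluster) and 12 non-clustered protocadherins. Spike-in calibrated RNA-seq was performed in mouse embryonic stem cells (ESCs) of E14 strain, in which Drosophila SG4 cells were added so that libraries could be scaled to cell number. PRC1CKO cells are Ring1a-/-; Ring1b fl/fl; Rosa26::ERT2-Cre, so that OHT (4-hydroxytamoxifen, which activates the Cre fusion expressed from the Rosa26 locus) removes RING1B from cells that already lack RING1A. PRC1CPM cells carry Ring1a with the changes I50A and D53K, a floxed Ring1b that OHT converts from wild type to a form with I53A and D56K, and the same Rosa26::ERT2-Cre, so that PRC1 remains but its catalytic activity is lost. Each line was untreated or given 800 nM OHT for 72 h, with 3 replicates of each of the 4 conditions. Each line is 1 clone, and a difference between lines cannot be told apart from a difference between clones. The labels do not say whether replicates were separate cultures, and p-values measure the spread between these libraries.

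Cadherins are calcium-dependent adhesion proteins of the plasma membrane. Classical cadherins bind a like cadherin on the neighbouring cell and anchor to actin through catenins, and ESC colonies are held together mainly by E-cadherin, the product of Cdh1. Protocadherins have a related extracellular part but do not bind beta-catenin. In the alpha and gamma clusters many variable first exons are each spliced to the same constant exons, which gives neurons distinct surface identities, whereas each beta gene is a single exon. Polycomb repressive complex 1 (PRC1) ubiquitylates histone H2A through its RING1 subunits and keeps many developmental genes silent in ESCs.

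Libraries held between 14668159 and 27016156 reads over gene bodies, introns included, summed over all rows. Values are normalised read counts, which are reads divided by the spike-in size factor of the library. A gene was tested where at least 10 reads were found in at least 3 libraries, which 58 of the 71 genes met. The 13 that did not were Cdh16, Cdh17, Cdh19, Pcdh12 and 9 beta genes. Of the values between 1 and 20 reads over all rows, 80.2% were even numbers, so counting intervals, which assume independent reads, are too narrow. PRC1CKO untreated replicate 1 stood apart in scale, with a summed normalised read count 1.41 times the mean of the other 2 replicates, and PRC1CPM OHT replicate 1 was at 1.31 times its own. Counts of genes called higher after OHT are given with and without them, for all tested genes and for classical cadherins, clustered and non-clustered protocadherins. The altered genes did not check the labels, since the table gives 1 value for a whole gene body and none for the altered exons. Ring1 (RING1A) stood at 312.8, 203.9 and 165.7 in untreated PRC1CKO cells, 281.1, 250.8 and 228.6 after OHT, 179.0, 181.9 and 124.7 in untreated PRC1CPM cells, and 161.2, 111.3 and 147.9 after OHT. Rnf2 (RING1B) stood at 1756, 1436 and 1385, then 1489, 1565 and 1585 in PRC1CKO cells, and at 1850, 1659 and 1578, then 1724, 1295 and 1513 in PRC1CPM cells. Neither row passed the test in either line (limma adjusted p of 0.75 and 0.963 in PRC1CKO, and 0.816 and 0.763 in PRC1CPM). Ring1 was not lower in the Ring1a-/- line than in PRC1CPM cells, and after OHT its PRC1CKO libraries lay above the PRC1CPM libraries without overlap (log2 difference of PRC1CPM from PRC1CKO -0.86 ± 0.30, limma adjusted p = 0.156).

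After OHT, 28 of the 58 tested genes rose in PRC1CKO cells and none fell, where a gene is called if its fold change exceeds 1.5 at a limma adjusted p below 0.05. The same calls were made higher for 16.5% of all 16940 rows tested and lower for 3.09%, against 48.3% of the tested cadherin and protocadherin genes called higher. In PRC1CPM cells 22 rose (37.9%, against 13.1% of all rows) and none fell (1.4% of all rows). At an unadjusted p under 0.05, 2 genes were lower in PRC1CKO and 0 in PRC1CPM cells (1023 and 602 of all 16940 rows), and edgeR and DESeq2 each called 1 lower in PRC1CKO (549 and 561 of all rows) and 0 in PRC1CPM cells (245 and 267). Over the tested genes, log2 fold changes had a median of 0.72 in PRC1CKO and 0.69 in PRC1CPM cells, beside 0.12 and 0.10 over all rows. Without the 18 gamma rows, which share reads, the medians were 1.86 and 1.29. Without PRC1CPM OHT replicate 1 the median of all tested genes in PRC1CPM cells was 0.33, beside -0.04 over all rows. All 3 OHT libraries lay above all 3 untreated libraries for 45 tested genes in PRC1CKO cells (22.1% of all rows) and for 25 in PRC1CPM cells (18.7%), and below them for 1 gene in each line (8.52% and 3.7%), Cdh22 and Pcdh15. Without PRC1CKO untreated replicate 1, 46 genes were called higher in PRC1CKO cells, beside 22.0% of all rows, 16 of them in the gamma cluster. Without PRC1CPM OHT replicate 1, 18 were called higher in PRC1CPM cells, beside 8.49% of all rows. The classes did not move alike, as the plot of change by class shows. Of the classical cadherins 9 of 17 rose in PRC1CKO and 7 in PRC1CPM cells, of the clustered protocadherins 9 of 27 and 6, and of the non-clustered protocadherins 8 of 11 and 7. Without PRC1CKO untreated replicate 1, PRC1CKO counts were 11 of 17 classical cadherins, 23 of 27 clustered and 10 of 11 non-clustered protocadherins. The order of the first 2 classes thus rests on that library and on the gamma rows, which share reads. Without PRC1CPM OHT replicate 1 the counts of these classes in PRC1CPM cells were 7 of 17, 4 of 27 and 5 of 11. Within the clustered genes 7 of 9 alpha and beta genes rose in PRC1CKO cells, and 2 of 18 gamma genes. Without PRC1CKO untreated replicate 1 these were 2 of 2 alpha, 5 of 7 beta and 16 of 18 gamma genes.

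**Figure D1:**
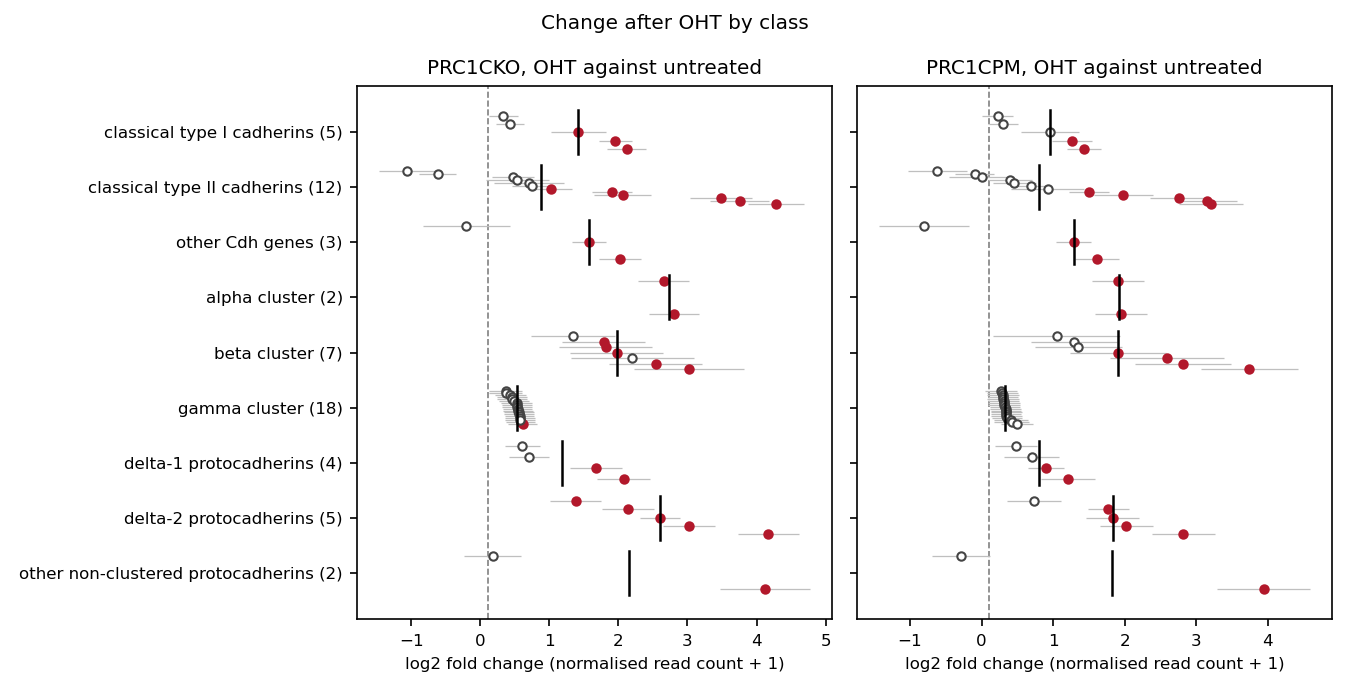
Log2 fold change after OHT (horizontal axis, on the normalised read count + 1) for each of the 58 tested genes, by class (vertical axis, with the number tested), in PRC1CKO cells (left) and PRC1CPM cells (right). Filled points passed the test as higher, open points did not, grey lines are standard errors, the short black line is the class median and the dashed line the median over all 16940 rows (0.12 and 0.10). The gamma genes lie close together above the dashed line, with medians of 0.54 and 0.33. Without PRC1CKO untreated replicate 1 the former was 0.71, beside 0.29 over all rows. Without PRC1CPM OHT replicate 1 the latter was 0.13, beside -0.04 over all rows.

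Promoters were looked at because genes of several classes and chromosomes moved together, and because PRC1 in ESCs is known to occupy CpG islands. The RefSeq promoter table (GRCm38.p6) matched 22 of the 71 genes, of which 20 had a start within 1000 bases of the start of the counted row. In the 250 bases before the start, the letters CG, which read the same on both strands, occurred a median of 10 times in the 13 of these genes called higher in PRC1CKO cells, 7 times in the 7 not called and 6 times over 32851 promoters. The 4 promoters below were chosen after the values were seen, as those with the 2 largest and the 2 smallest log2 fold changes in PRC1CKO cells among these 20 genes. They are Pcdh10 (chr3:45378148-45378397, plus strand), Pcdh20 (chr14:88471397-88471646, minus strand), Cdh22 (chr2:165234738-165234987, minus strand) and Cdh26 (chr2:178430265-178430514, plus strand), each written 5′ to 3′ up to the base before the start, with CG in capitals.
Pcdh10: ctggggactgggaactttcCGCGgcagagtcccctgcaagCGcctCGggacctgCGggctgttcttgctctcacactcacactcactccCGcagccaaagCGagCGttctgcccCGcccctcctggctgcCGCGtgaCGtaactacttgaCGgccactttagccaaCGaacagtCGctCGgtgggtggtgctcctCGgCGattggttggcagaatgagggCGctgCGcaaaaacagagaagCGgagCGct
Pcdh20: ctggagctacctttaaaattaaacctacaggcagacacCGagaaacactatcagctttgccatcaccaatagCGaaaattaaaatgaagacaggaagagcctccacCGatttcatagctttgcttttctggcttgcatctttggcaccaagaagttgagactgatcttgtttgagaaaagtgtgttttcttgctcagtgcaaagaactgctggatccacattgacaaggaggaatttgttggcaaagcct
Cdh22: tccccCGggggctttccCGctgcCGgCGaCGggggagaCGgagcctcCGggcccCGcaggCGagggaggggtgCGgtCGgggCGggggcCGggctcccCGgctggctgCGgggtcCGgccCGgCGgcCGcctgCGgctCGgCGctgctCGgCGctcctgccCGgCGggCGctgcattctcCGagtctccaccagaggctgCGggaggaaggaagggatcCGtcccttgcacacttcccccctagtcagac
Cdh26: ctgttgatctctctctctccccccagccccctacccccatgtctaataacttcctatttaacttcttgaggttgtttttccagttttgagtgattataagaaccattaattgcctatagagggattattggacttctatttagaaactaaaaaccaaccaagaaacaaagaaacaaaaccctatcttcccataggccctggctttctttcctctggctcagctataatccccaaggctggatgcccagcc
Pcdh10 had 22 CG, a number that 14.8% of promoters reach, and rose 17.98-fold in PRC1CKO cells. Pcdh20 had 3, which 71.0% reach, and rose 17.5-fold. Cdh22 had 30, which 5.94% reach, and Cdh26 had none, whereas 92.1% of promoters have at least 1, and neither was called.

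Among type I cadherins, the 2 genes that are abundant in ESCs did not pass the test and 3 genes at lower levels rose in PRC1CKO cells. Cdh1 (E-cadherin; chr8:106603368-106670246) had normalised read counts of 16619, 11483 and 11937 in untreated PRC1CKO cells and of 19451, 16789 and 16935 after OHT. In PRC1CPM cells it had 19256, 13524 and 16080, then 24881, 16261 and 19536. The conditions did not overlap in PRC1CKO cells and overlapped in PRC1CPM cells, with log2 fold changes of 0.43 ± 0.20 and 0.31 ± 0.20 (SE; limma adjusted p = 0.144 and 0.423). Without PRC1CKO untreated replicate 1, which was the highest of its condition, Cdh1 was called higher in PRC1CKO cells. Cdh3 (P-cadherin) lies next to Cdh1 on chromosome 8, and had 3664, 2421 and 2716, then 4060.5, 3354 and 3536 in PRC1CKO cells, with overlap and a log2 fold change of 0.33 ± 0.21 (limma adjusted p = 0.337). In PRC1CPM cells Cdh3 had 3653, 2539 and 2894, then 4410, 2849 and 3409.

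Cdh2 (N-cadherin, the main classical cadherin of neural and mesenchymal cells; chr18:16588877-16809049) had 545, 339 and 193 in untreated PRC1CKO cells and 1896, 1152 and 1345 after OHT. It had 864, 537 and 426, then 1952, 1182 and 1202 in PRC1CPM cells. All OHT libraries lay above all untreated libraries of their line, and the rise was 4.34-fold in PRC1CKO and 2.41-fold in PRC1CPM cells (log2 fold change 2.12 ± 0.28 and 1.27 ± 0.28, limma adjusted p = 2.75e-08 and 0.000632). With no filter on low rows the call in PRC1CPM cells ended (limma adjusted p = 0.107). Cdh4 (R-cadherin, known from retina and brain; chr2:179442478-179899375) went from 868, 793 and 569 to 3677, 2010 and 3098 in PRC1CKO cells. In PRC1CPM cells Cdh4 went from 688, 741 and 546 to 2280, 1545 and 1561. Both lines again separated without overlap, and the log2 fold changes were 1.95 ± 0.24 and 1.43 ± 0.24 (limma adjusted p = 3.11e-09 and 7.39e-06). Cdh15 (M-cadherin, of muscle; chr8:122848374-122867397) was the lowest of the class, with 35.7, 18.5 and 30.4, then 86.8, 75.9 and 62.8 in PRC1CKO cells. It had 61.4, 24.5 and 62.4, then 118.7, 61.9 and 96.4 in PRC1CPM cells, where the conditions overlapped. Cdh15 was called in PRC1CKO cells only (log2 fold change 1.42 ± 0.40, limma adjusted p = 0.00671, against 0.95 ± 0.40 and 0.116), and leaving out PRC1CKO untreated replicate 2, or using no filter, ended that call.

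Type II cadherins act in sorting of motor neurons, vessel walls and bone among other tissues. With 1 added to each count, they held the gene with the largest log2 fold change in PRC1CKO cells, Cdh11. Those of Pcdh10 (4.17) and Pcdh20 (4.13) differed from it by less than its standard error. Of 12 tested, 6 rose in PRC1CKO and 5 in PRC1CPM cells, none fell, and Cdh19 was below the read minimum. Cdh11 (OB-cadherin, of mesenchyme and bone; chr8:102632995-102785111) had 55.1, 10.8 and 8.5 in untreated PRC1CKO cells and 426.7, 375.8 and 284.4 after OHT. In PRC1CPM cells it had 56.3, 34.9 and 29.8, then 334.0, 225.8 and 256.3. In both lines the lowest OHT library lay far above the highest untreated library. The log2 fold changes of Cdh11 were 4.28 ± 0.41 and 2.76 ± 0.41 (limma adjusted p = 4.11e-12 and 8.26e-07), and 0.514% of all rows tested rose more in PRC1CKO cells. Cdh20 (chr1:104768819-104995481) had 14.9, 23.1 and 10.1, then 185.3, 268.4 and 207.6 in PRC1CKO cells. It had 7.7, 39.6 and 16.3, then 219.1, 168.6 and 113.9 in PRC1CPM cells, a rise of 3.75 ± 0.42 and 3.15 ± 0.42 on the log2 scale. Cdh8, which is known from brain circuits (chr8:99024471-99416471), had 14.9, 6.2 and 5.1, then 108.5, 79.6 and 109.9 in PRC1CKO cells. In PRC1CPM cells Cdh8 had 20.5, 13.2 and 8.1, then 177.6, 86.6 and 140.2, so that this line reached the higher mean (134.8 ± 45.7 against 99.3 ± 17.1, SD), within the spread.

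Cdh5 (VE-cadherin, which seals endothelial junctions; chr8:104101625-104144502) had 38.7, 20.01 and 18.6, then 112.1, 125.9 and 82.0 in PRC1CKO cells, and 16.6, 11.3 and 19.0, then 69.5, 55.7 and 65.7 in PRC1CPM cells. Its log2 fold changes were close, at 2.06 ± 0.41 and 1.98 ± 0.41. Cdh6 (K-cadherin, of kidney and neural crest; chr15:13034200-13173639) had 177.3, 109.3 and 99.8, then 498.1, 440.6 and 474.6 in PRC1CKO cells, and 166.2, 111.2 and 155.9, then 530.9, 336.3 and 372.4 in PRC1CPM cells. Cdh10 rose in PRC1CKO cells (log2 fold change 1.03 ± 0.30, limma adjusted p = 0.0102), a call that ended without PRC1CKO untreated replicate 3 or PRC1CKO OHT replicate 1 and with no filter, and had 0.46 ± 0.30 (adjusted p = 0.434) in PRC1CPM cells. Cdh24 (chr14:54631992-54641364) was the type II gene with the most reads per kb in untreated cells. It had 330.7, 206.2 and 212.2, then 462.8, 325.8 and 452.7 in PRC1CKO cells, and 318.4, 214.9 and 233.2, then 497.1, 292.3 and 462.3 in PRC1CPM cells. The conditions overlapped in both lines, and its log2 fold changes of 0.74 ± 0.28 and 0.69 ± 0.28 had limma adjusted p of 0.05001 and 0.0937, so it was not called. Of the 12 fits that left out 1 library, 6 called Cdh24 higher in PRC1CKO and 3 in PRC1CPM cells. That without PRC1CKO untreated replicate 1 was among those that called it in PRC1CKO cells. Cdh7, Cdh12 and Cdh18 were not called in either line, with log2 fold changes of 0.70 ± 0.51, 0.54 ± 0.45 and 0.47 ± 0.31 in PRC1CKO cells. The 2 genes lower at an unadjusted p under 0.05 in PRC1CKO cells were Cdh22 and Cdh9, which were named after their values were seen. Cdh22 had 531.8, 447.1 and 481.1, then 327.2, 286.9 and 335.9 in PRC1CKO cells without overlap, and its estimate of -0.62 ± 0.27 did not pass the test (limma adjusted p = 0.112). Cdh9 had 89.4, 91.6 and 44.0, then 38.0, 44.4 and 22.7, with overlap and an estimate of -1.06 ± 0.41 (limma adjusted p = 0.0650). Of the 12 fits that left out 1 library, 1 called Cdh9 lower in PRC1CKO cells and 0 called Cdh22.

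**Figure D2:**
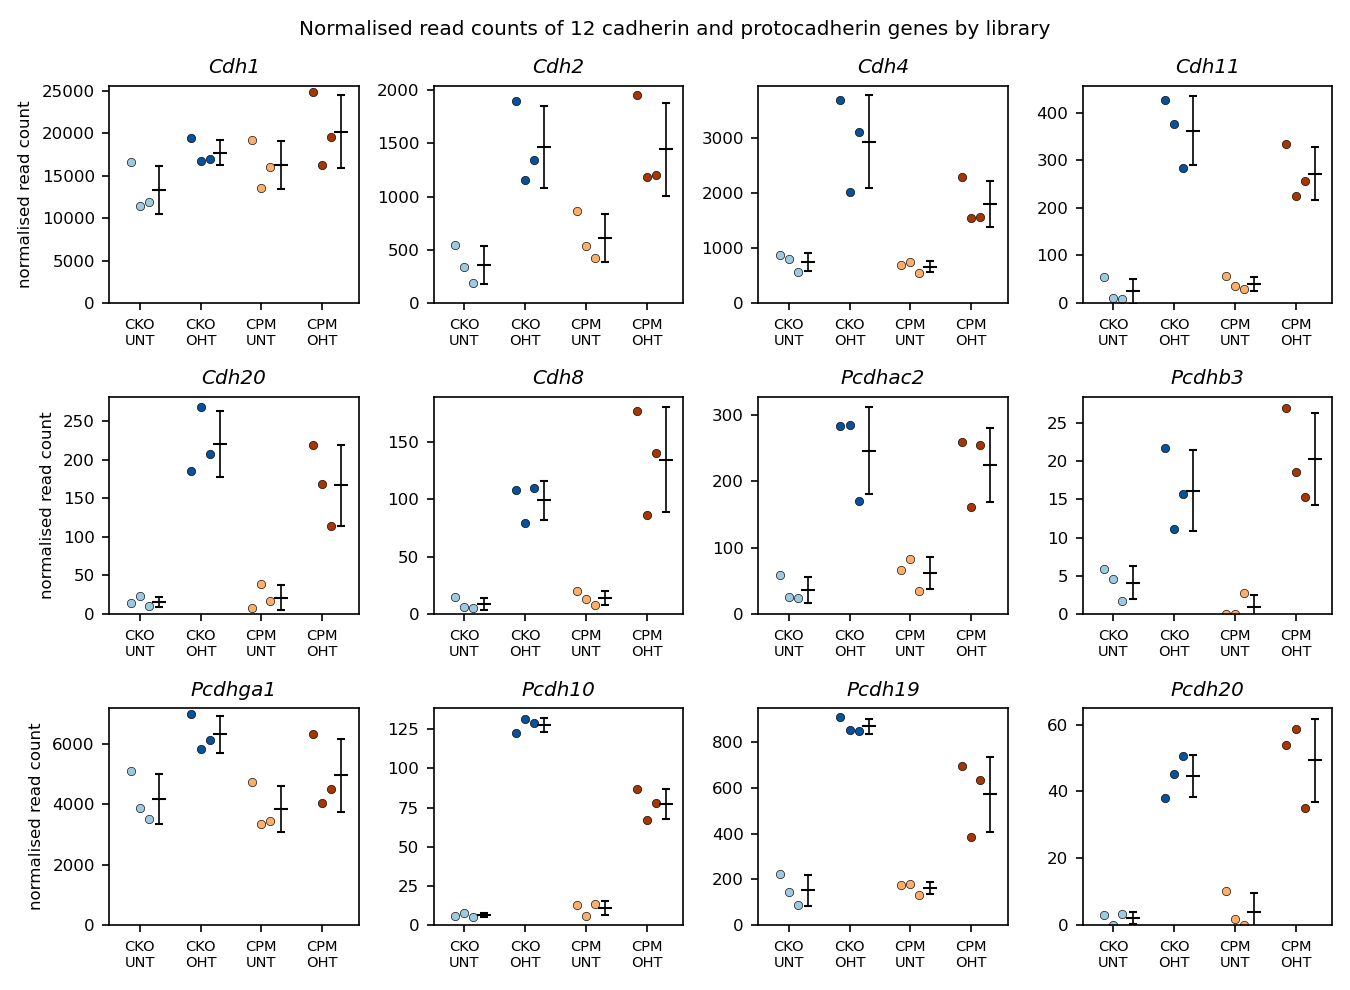
Normalised read counts (vertical axes, each from 0, with its own scale) in every library of the 4 conditions (horizontal axes; UNT, untreated) for 12 genes; points are libraries and the bars are the mean ± SD of 3. Cdh1 and Pcdhga1 start at high counts and have log2 fold changes of 0.43 and 0.61 in PRC1CKO cells, whereas Cdh11, Pcdh10 and Pcdh20 start near 0 and separate without overlap in both lines.

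Of the other Cdh genes, Cdh13 and Cdh23 rose in both lines, Cdh26 passed the test in neither (log2 fold change -0.20 ± 0.63 and -0.80 ± 0.63), and Cdh16 and Cdh17 were below the read minimum. Cdh13 (T-cadherin, which lacks a cytoplasmic tail and is held in the membrane by a lipid anchor; chr8:118283755-119323448) had 382.8, 144.7 and 151.4, then 1248, 605 and 753 in PRC1CKO cells. It had 542.1, 308.2 and 321.3, then 1738, 1132 and 789 in PRC1CPM cells, and log2 fold changes of 2.02 ± 0.30 and 1.62 ± 0.30, the latter not called with no filter on low rows (limma adjusted p = 0.0694). Cdh23 (a component of the tip links of hair cells; chr10:60302750-60696490) had 449.9, 288.6 and 421.1, then 1280, 996 and 1137 in PRC1CKO cells, and 542.1, 387.3 and 490.7, then 1531, 886 and 1109 in PRC1CPM cells. Its log2 fold changes were 1.57 ± 0.25 and 1.29 ± 0.25. An antisense row, 4632428N05Rik, covers 6.56% of the Cdh23 row and held 4501 reads over all libraries, against 9911 for Cdh23, and whether the counting used strand is not stated, so the part of its reads in the Cdh23 values was not tested. Reads over Cdh5, Cdh8, Pcdh10 and Pcdh17 likewise overlap antisense rows, of which the one at Cdh5 held 85 reads over all libraries and the others 6 or fewer.

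The clustered protocadherins lie on chromosome 18 in the order alpha, beta, gamma. Alpha and gamma rows of the table run from one first exon to a shared end, so that a read near the end is counted for every row and rows are not separate measurements. The alpha cluster was represented by Pcdhac1 (chr18:37090136-37187657) and Pcdhac2 (chr18:37143969-37187657), whose first exons are the last of the cluster. Transcripts from alpha first exons that have no row here use the same constant exons. Their reads would be counted in both rows, and their part was not tested. Pcdhac2 had 58.1, 26.2 and 24.5, then 283.8, 285.1 and 170.1 in PRC1CKO cells, and 66.5, 82.9 and 35.2, then 259.7, 160.8 and 254.1 in PRC1CPM cells. The Pcdhac1 row, which contains that of Pcdhac2, had 90.9, 33.9 and 29.6, then 332.6, 334.1 and 218.1 in PRC1CKO cells, and 79.3, 93.3 and 35.2, then 288.6, 191.0 and 284.8 in PRC1CPM cells. Both rows rose in both lines without overlap (Pcdhac2, log2 fold change 2.80 ± 0.36 and 1.90 ± 0.36, limma adjusted p = 1.53e-08 and 7.71e-05; Pcdhac1, 2.66 ± 0.36 and 1.95 ± 0.36). Subtracting the inner row from the outer gave the 53.8 kb before the Pcdhac2 start, which held 15.2 ± 15.3 before and 48.6 ± 0.6 after OHT in PRC1CKO cells and 7.7 ± 6.8 and 29.9 ± 0.9 in PRC1CPM cells (SD, n = 3). The untreated PRC1CKO libraries held 32.8, 7.7 and 5.1 there, with replicate 1 the highest. The log2 ratio of OHT to untreated in PRC1CKO cells was 1.68, and 1.26 to 2.93 when 1 library was left out. Most of the reads of the Pcdhac1 row were thus those that it shares with Pcdhac2.

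Beta genes had few reads. Of the 16, 7 were tested, 5 rose in PRC1CKO and 4 in PRC1CPM cells, and none fell. The 9 untested genes had a summed normalised read count of 8.5 ± 4.4 in untreated PRC1CKO cells and 28.6 ± 5.5 after OHT, and of 4.1 ± 1.5 and 27.6 ± 10.8 in PRC1CPM cells (SD, n = 3). Over all 16 genes the sum went from 47.7, 26.2 and 22.8 to 141.9, 135.1 and 116.0 in PRC1CKO cells and from 25.6, 22.6 and 29.8 to 143.8, 112.9 and 123.8 in PRC1CPM cells. The sums of the OHT libraries lay above those of the untreated libraries in both lines. Pcdhb3 (chr18:37300799-37304585) had 6.0, 4.6 and 1.7, then 21.7, 11.1 and 15.7 in PRC1CKO cells, and 0, 0 and 2.7, then 27.0, 18.6 and 15.3 in PRC1CPM cells. In PRC1CPM cells that was 2 reads before and 66 after OHT, a ratio of 26.3 with a binomial 95% interval of 6.99 to 221. Intervals of this kind leave out the spread between libraries. They assume independent reads, so they are too narrow for counting error as well. The call of Pcdhb3 in PRC1CKO cells (log2 fold change 1.82 ± 0.68, limma adjusted p = 0.0496) was lost in 8 of 12 fits that left out 1 library, namely without PRC1CKO untreated replicate 2 or 3, or without any one OHT library of either line. It was also lost with a pseudocount of 0.1, with no filter and without gDNA-seq correction. Pcdhb16 (chr18:37477768-37483037) had 0, 1.5 and 0, then 12.7, 9.3 and 8.7 in PRC1CKO cells, 2 reads against 34 and a ratio of 16.1 (4.12 to 138). It had 0, 5.7 and 0, then 13.5, 9.3 and 8.8 in PRC1CPM cells (log2 fold change 2.59 ± 0.79, limma adjusted p = 0.0173), a call lost with edgeR, DESeq2, a pseudocount of 0.1 or no filter, and without PRC1CPM untreated replicate 1 or 3 or PRC1CPM OHT replicate 1. Pcdhb18 had 3.0, 0 and 1.7, then 12.7, 14.8 and 8.7 in PRC1CKO cells, and 7.7, 1.9 and 4.1, then 11.6, 20.1 and 24.1 in PRC1CPM cells, and its call in the latter (limma adjusted p = 0.0470) was lost in 8 of the 12 fits, without any one OHT library of either line or PRC1CPM untreated replicate 2 or 3, and with DESeq2, a pseudocount of 0.1 or no filter. Pcdhb2 had 11.9, 4.6 and 1.7, then 20.8, 25.9 and 19.2 in PRC1CKO cells, and 0, 1.9 and 2.7, then 9.7, 10.8 and 28.5 in PRC1CPM cells. Pcdhb14 was called in PRC1CKO cells only, where it had 7.4, 2.3 and 5.1, then 16.3, 16.7 and 21.8. In PRC1CKO cells the calls of Pcdhb2 and Pcdhb14 were lost without PRC1CKO untreated replicate 3 or any one PRC1CKO OHT library, and that of Pcdhb14 also without PRC1CKO untreated replicate 2. Both were lost with a pseudocount of 0.1, that of Pcdhb2 also with no filter on low rows and that of Pcdhb14 without gDNA-seq correction. Pcdhb4 and Pcdhb22 were not called in either line.

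The gamma cluster differed from the alpha and beta genes in level and in change. Its 18 rows began within 158 kb of each other and had mean normalised read counts from 907.5 (Pcdhgc5) to 4174 (Pcdhga1) in untreated PRC1CKO cells. Pcdhga1 (chr18:37661945-37841870), the longest row, had 5121, 3887 and 3515, then 6997, 5834 and 6126 in PRC1CKO cells, and 4732, 3363 and 3442, then 6323, 4033 and 4521 in PRC1CPM cells. It rose 1.53-fold in PRC1CKO cells (log2 fold change 0.61 ± 0.21, limma adjusted p = 0.0291), just past the fold threshold, and had 0.36 ± 0.21 (adjusted p = 0.336) in PRC1CPM cells with overlap. Pcdhga2, which differs from it by 7.16 kb, was called in PRC1CKO cells as well, with 4846, 3657 and 3298, then 6535, 5390 and 5621. Its 4547, 3187 and 3256, then 6025, 3830 and 4213 in PRC1CPM cells overlapped. Both calls ended on the TMM scale, on the spike-in scale without gDNA-seq correction, with no filter on low rows and with no prior trend. They also ended without PRC1CKO untreated replicate 2 or 3 and without PRC1CKO OHT replicate 1 or 3. That of Pcdhga2 ended as well with edgeR, with DESeq2 and without PRC1CKO OHT replicate 2. The shortest row, Pcdhgc5 (chr18:37819546-37841872), was close to Pcdhgc3 in reads per kb, and these rows had the most of the class. Pcdhgc5 had 1137, 860 and 726, then 1234, 1207 and 1028 in PRC1CKO cells, and 1220, 739 and 771, then 1550, 940 and 1140 in PRC1CPM cells, and was not called in either line (log2 fold change 0.37 ± 0.24 and 0.42 ± 0.24). In PRC1CKO cells 15 of 18 gamma rows separated without overlap, beside 22.1% of all rows, but these rows share their reads.

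Differences between nested rows gave the reads that lay in each stretch between the starts of neighbouring rows, as a description with no test. The stretches that begin at Pcdhga7, Pcdhga8, Pcdhga9 and Pcdhga10 each hold a further first exon, of Pcdhgb4, Pcdhgb5, Pcdhgb6 and Pcdhgb7. The stretch from Pcdhga1 to Pcdhga2 held a mean of 241.0 before and 470.1 after OHT in PRC1CKO cells, a ratio of 1.95, and 182.4 and 269.8 in PRC1CPM cells, a ratio of 1.48. Over the 52.9 kb from the Pcdhga1 to the Pcdhga7 start, PRC1CKO cells held 1196, 1052 and 878, then 1952, 1767 and 1800, a ratio of 1.77 with no overlap in any of the 8 stretches. The same interval held 835, 780 and 698, then 1419, 930 and 1126 in PRC1CPM cells, a ratio of 1.502 with no overlap in 6 of 8 stretches. From Pcdhgc3 to the shared end, the 35.5 kb that hold the C-type first exons and the constant exons, the ratios were 1.34 and 1.40. In PRC1CPM cells the stretches that begin at Pcdhgb8 and Pcdhga12 had ratios of 0.65 and 0.88, with overlap. The latter was 1.01 without PRC1CPM untreated replicate 1. The ratio of 1.06 from Pcdhga8 was 0.933 without PRC1CPM untreated replicate 3 and 0.971 without PRC1CPM OHT replicate 1, and that of 1.32 from Pcdhga9 was 0.999 without the latter. The reads are those of gene bodies, so a stretch mixes transcripts that start in it with those that pass through it.

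**Figure D3:**
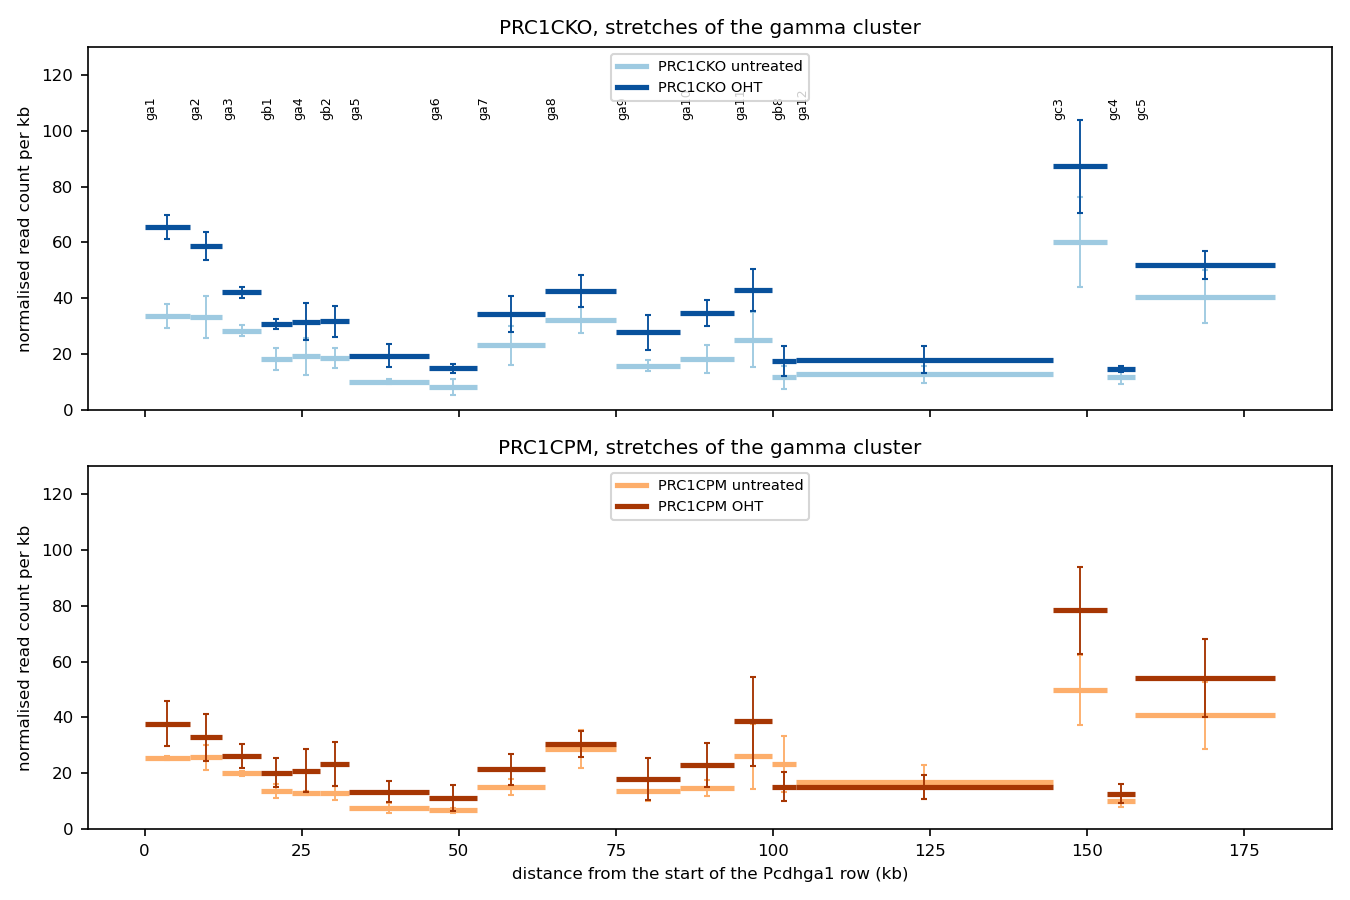
Mean normalised read count per kb (vertical axis; error bars, SD of 3 libraries) in each stretch between the starts of neighbouring gamma rows, against the distance from the start of the Pcdhga1 row in kb (horizontal axis), in PRC1CKO cells (top) and PRC1CPM cells (bottom); names in the upper panel mark the first row of a stretch. The OHT lines lie above the untreated lines in all 18 stretches of PRC1CKO cells, and in 16 of 18 of PRC1CPM cells (14 to 17 when 1 library was left out).

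The non-clustered protocadherins include the delta-1 and delta-2 groups, which differ in their cytoplasmic motifs and are known from brain wiring. All 5 delta-2 genes rose in PRC1CKO cells and 4 in PRC1CPM cells, with class medians of 2.60 and 1.84 on the log2 scale. Pcdh10 (OL-protocadherin; chr3:45378398-45423711) had 6.0, 7.7 and 5.1, then 122.9, 131.4 and 129.1 in PRC1CKO cells, and 12.8, 5.7 and 13.6, then 86.9, 67.3 and 77.8 in PRC1CPM cells. The OHT libraries of PRC1CKO cells lay close together. The rise of Pcdh10 was 17.98-fold in PRC1CKO and 7.07-fold in PRC1CPM cells (log2 fold change 4.17 ± 0.44 and 2.82 ± 0.44, limma adjusted p = 8.08e-11 and 2.62e-06). Pcdh17 (chr14:84443563-84537060) had 35.7, 20.01 and 27.1, then 227.8, 230.5 and 217.2 in PRC1CKO cells, and 38.4, 17.0 and 40.7, then 127.4, 91.2 and 166.5 in PRC1CPM cells. Pcdh19, an X-linked gene whose loss in humans causes an epilepsy (chrX:133582861-133688993), had 223.4, 146.2 and 88.8, then 909.4, 853.4 and 851.4 in PRC1CKO cells. In PRC1CPM cells it had 176.4, 180.0 and 132.8, then 695.0, 385.0 and 635.3. After OHT every PRC1CPM library was below every PRC1CKO library for Pcdh10, Pcdh17 and Pcdh19, as for Cdh5, beside 4.35% of all rows, and above them for Pcdh18 (11.9%). Pcdh8 (chr14:79766772-79771312) had 59.6, 20.01 and 30.4, then 142.8, 140.7 and 167.5 in PRC1CKO cells, and 53.7, 49.0 and 39.3, then 187.3, 108.2 and 243.2 in PRC1CPM cells. Pcdh18 (chr3:49743296-49757316) was called in PRC1CKO cells only, with 122.1, 41.6 and 38.9, then 162.7, 157.4 and 141.3 (log2 fold change 1.38 ± 0.37, limma adjusted p = 0.00420). That call ended without PRC1CKO untreated replicate 3, with DESeq2, with no filter on low rows and with no prior trend, although the conditions did not overlap. In PRC1CPM cells Pcdh18 had 274.9, 130.1 and 75.9 before OHT, which overlapped with untreated PRC1CKO cells, and 320.5, 210.3 and 187.3 after OHT.

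Of the 4 delta-1 genes, 2 rose in each line. Pcdh7 (chr5:57718021-58132240) had 137.0, 61.6 and 35.5, then 367.0, 252.7 and 252.1 in PRC1CKO cells and was called there (log2 fold change 2.08 ± 0.39, limma adjusted p = 3.49e-05), though not with no filter (0.0651). In PRC1CPM cells it had 281.3, 133.8 and 75.9, then 429.5, 211.8 and 135.8, with overlap and 0.70 ± 0.39 (limma adjusted p = 0.299). Pcdh11x (chrX:120290327-120910618) had 47.7, 35.4 and 21.1, then 124.7, 103.7 and 96.0 in PRC1CKO cells, and 39.6, 37.7 and 32.5, then 119.7, 74.2 and 71.2 in PRC1CPM cells. It was called in both lines, and the call in PRC1CPM cells (limma adjusted p = 0.0202) ended without PRC1CPM untreated replicate 3 or PRC1CPM OHT replicate 1. Pcdh1 (chr18:38196694-38209762), the delta-1 gene with the most reads per kb, had 516.6, 511.7 and 440.6, then 1198, 771 and 820 in PRC1CPM cells (log2 fold change 0.90 ± 0.25, limma adjusted p = 0.00718). It was the single gene called in PRC1CPM cells only, and that call ended without the same 2 libraries as for Pcdh11x, and with no filter. In PRC1CKO cells Pcdh1 had 773.1, 662.6 and 428.7, then 1151, 877 and 776, and missed the test (0.61 ± 0.25, limma adjusted p = 0.0784), but it passed there without PRC1CKO untreated replicate 1. Pcdh9 was not called in either line, but in PRC1CKO cells it passed in 2 of the 12 fits that left out 1 library. That without PRC1CKO untreated replicate 1 was among them. Of the other non-clustered genes, Pcdh20 (chr14:88464747-88471396) had 3.0, 0 and 3.4, then 38.0, 45.4 and 50.6 in PRC1CKO cells, and 10.2, 1.9 and 0, then 54.1, 58.8 and 35.1 in PRC1CPM cells. With 1 added to each count, its log2 fold change of 3.95 ± 0.65 was the largest of the tested genes in PRC1CPM cells. That of Pcdhb3, at 3.75 ± 0.68, differed from it by less than these standard errors. In PRC1CKO cells the log2 fold change of Pcdh20 was 4.13 ± 0.65 (limma adjusted p = 1.44e-06, and 7.29e-06 in PRC1CPM cells). Pcdh15 had log2 fold changes of 0.18 ± 0.41 and -0.29 ± 0.41 and was not called, and Pcdh12 was below the read minimum, with 15.4, 7.7 and 4.4 in OHT-treated PRC1CPM cells and at most 2.7 in any other library.

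The change after OHT was larger in PRC1CKO than in PRC1CPM cells for 34 of the 40 tested genes outside the gamma cluster, and for 19 of the 21 genes called in both lines. Over all rows it was larger for 9030 of 16940, and for 1457 of the 1957 called higher in both. The counts of 34 of 40 and 19 of 21 were the same on the TMM scale. Leaving out 1 library gave 26 to 35 of 40 and 16 to 19 of 21. Both were lowest without PRC1CPM OHT replicate 2, where the change was larger in PRC1CPM cells for 69.2% of all rows. The counts thus moved with single libraries. On the spike-in scale without gDNA-seq correction they were 21 of 40 and 12 of 21, where the change was larger in PRC1CPM cells for 89.1% of all rows. On the deposited scale the 6 exceptions were Pcdhb2 and Pcdhb3, which were called in both lines and had low counts, and Pcdh1, Cdh7, Cdh22 and Cdh9, of which the last 2 had negative estimates. The 21 genes called in both lines were 75% of those called in PRC1CKO and 95.5% of those called in PRC1CPM cells, beside 70.2% and 87.9% over all rows. Across the 40 genes, the log2 fold changes of the lines had a Pearson correlation of 0.876 (0.877 over all rows), as a description, since genes of a library share its spike-in factor. No cadherin or protocadherin gene passed the test of the interaction of line and treatment (limma, 0 higher and 4 lower among all rows, 0.0236%). At an unadjusted p under 0.05, 1 was higher in PRC1CPM and 5 were lower (128 and 369 of all 16940 rows), and edgeR and DESeq2 called 0. With the replicate number as a block, however, Pcdh19, Pcdh7, Cdh2 and Cdh11 were called lower, beside 246 of all rows. The differences in change were -1.53 ± 0.58 for Cdh11, -1.35 ± 0.62 for Pcdh10, -0.83 ± 0.41 for Pcdh19, -0.18 ± 0.92 for Pcdh20 and 1.93 ± 0.96 for Pcdhb3 (SE, log2 scale), and Cdh11 passed without PRC1CKO untreated replicate 1.

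**Figure D4:**
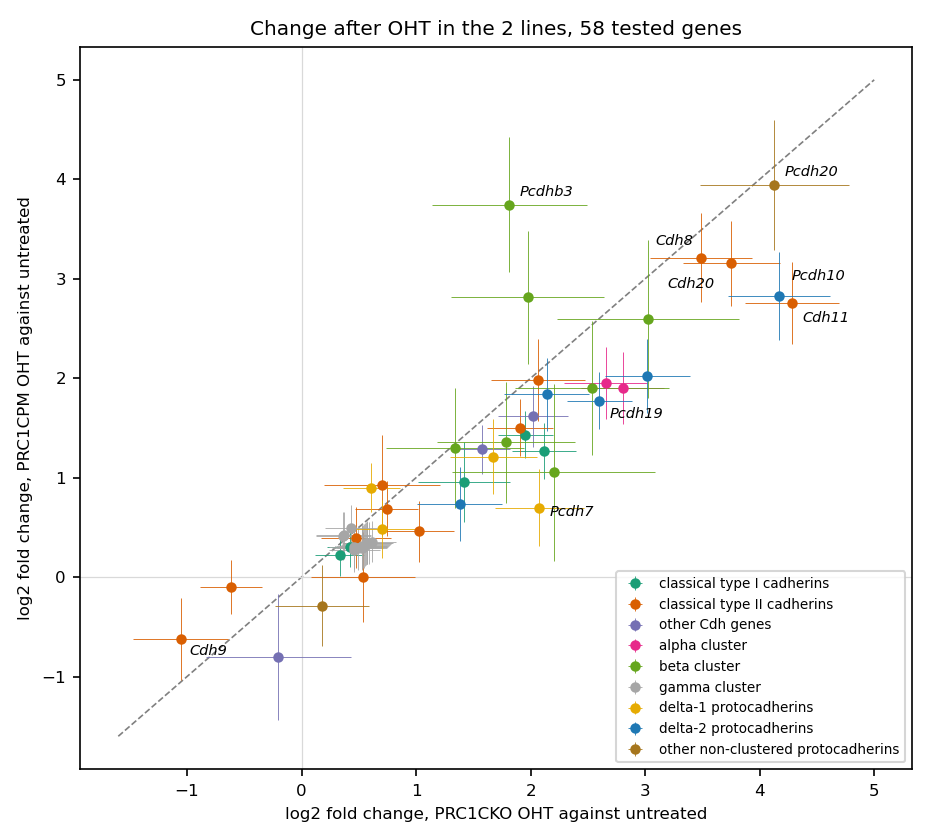
Log2 fold change after OHT in PRC1CKO cells (horizontal axis) and in PRC1CPM cells (vertical axis) of the 58 tested genes, coloured by class, with standard errors as bars and the line of equal change dashed. Most genes lie below the dashed line, among them Cdh11 (4.28 and 2.76) and Pcdh10 (4.17 and 2.82), whereas Pcdhb3 (1.82 and 3.75) lies above it.

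The treated lines were also compared directly, as were the untreated lines. Between the OHT-treated lines none of the 58 genes was called, beside 1.25% of all rows higher and 0.218% lower in PRC1CPM cells. At an unadjusted p under 0.05, 3 genes were lower in PRC1CPM cells and 0 were higher (363 and 1499 of all 16940 rows), and edgeR and DESeq2 called 0. The lowest adjusted p was that of Cdh4 (-0.69 ± 0.24, limma adjusted p = 0.157), and the others were Pcdh17 (-0.85 ± 0.37) and Pcdh19 (-0.65 ± 0.29), which on the TMM scale were all called lower. With the replicate number as a block, Cdh4, Pcdh17 and Pcdh19 were called lower and Pcdh18 higher (232 and 1131 of all rows). Between untreated lines none was called either, beside 2.21% of all rows higher and 0.478% lower in PRC1CPM cells, with 6 genes higher and 3 lower at an unadjusted p under 0.05 (2017 and 374 of all 16940 rows), and 1 called higher by edgeR and 0 by DESeq2. The untreated lines did not overlap for Cdh26, higher in PRC1CPM cells (9.23% of all rows), and Cdh22, lower (2.55%). The lowest adjusted p was that of Pcdh18 (1.24 ± 0.37, limma adjusted p = 0.0538), which was called higher in 8 of the 12 fits that left out 1 library. Without PRC1CKO untreated replicate 1, Cdh2, Cdh11, Cdh13, Pcdh7, Pcdh18 and Pcdhac2 were called higher in untreated PRC1CPM cells, beside 8.81% of all rows. With the replicate number as a block, the same 6 genes were called higher and 1, Cdh22, lower (1631 and 253 of all rows).

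Levels differed widely between genes. Per kb of counted row, introns included, Cdh1 had the highest normalised read count in untreated cells (199.6 ± 42.5 in PRC1CKO and 243.5 ± 42.9 in PRC1CPM cells, SD, n = 3). Cdh3 followed (63.7 ± 14.1 and 65.8 ± 12.4) and did not overlap with Cdh1 in its spread. Pcdh1 (47.6 ± 13.5 and 37.5 ± 3.3), Pcdhgc5 (40.6 ± 9.4 and 40.8 ± 12.04) and Pcdhgc3 (41.8 ± 9.96 and 39.1 ± 9.97) came next by the mean of both lines, in an order that differed between the lines, and did not differ from each other beyond their spread. The median over all rows tested was 20.2. The genes that rose most had low untreated levels per kb, of 0.138 ± 0.029 for Pcdh10, 0.163 ± 0.173 for Cdh11 and 0.319 ± 0.278 for Pcdh20 in PRC1CKO cells, and reached 2.82 ± 0.10, 2.38 ± 0.47 and 6.71 ± 0.95 after OHT. All remained below the untreated level of Cdh1. Outside the gamma cluster, untreated levels per kb in PRC1CKO cells ran from 0.0222 (Cdh8) to 8.08 (Pcdh8) for the 26 genes called higher there, and from 0.0446 (Cdh12) to 199.6 (Cdh1) for the 14 not called. Their medians were alike, at 0.642 and 0.659. Rows include introns, so these levels are not those of mature transcripts and can still depend on row length.

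The counts of partner genes below stand beside 16.5% of all rows called higher and 3.09% lower in PRC1CKO cells, and 13.1% and 1.4% in PRC1CPM cells. Among the partners of cadherins, 3 of 12 catenin genes rose in each line (median log2 fold change 0.21 and 0.29). Ctnnd2 (delta-catenin, of neurons) had 1.66 ± 0.24 and 1.18 ± 0.24, and Pkp1 (plakophilin) 1.43 ± 0.44 and 1.28 ± 0.44, both called in both lines. Ctnnb1 (beta-catenin) had a mean of 10433 in untreated PRC1CKO cells and 9621 after OHT and was not called. All 3 tested desmosomal cadherins rose in both lines, namely Dsc3 (2.71 ± 0.34 and 2.74 ± 0.34), Dsc2 (1.38 ± 0.26 and 0.99 ± 0.26) and Dsg2 (0.82 ± 0.22 and 0.68 ± 0.22). Of 14 other genes of the cadherin superfamily, 6 rose in PRC1CKO and 5 in PRC1CPM cells and none fell, among them Fat3 (3.93 ± 0.27 and 2.17 ± 0.27), Fat4 (2.75 ± 0.42 and 2.11 ± 0.42), Dchs1, the Dachsous ligand of Fat4 (2.55 ± 0.29 and 2.51 ± 0.29), and the calsyntenin Clstn2 (2.66 ± 0.25 and 1.67 ± 0.25). The most abundant of them, Fat1, was not called. Snail, ZEB and Twist factors are known as repressors of Cdh1. Of 7, 5 rose in PRC1CKO and 4 in PRC1CPM cells, such as Twist1 (2.81 ± 0.44 and 1.78 ± 0.44) and Snai1 (1.14 ± 0.36 and 1.14 ± 0.36), and Zeb1, the most abundant, fell by 1.45 ± 0.22 and 1.37 ± 0.22 on the log2 scale. Of 14 regulators of the clustered protocadherins, such as Ctcf and the cohesin gene Rad21, which set promoter choice there, only Dnmt3b passed the test, in PRC1CKO cells (0.68 ± 0.23). None of the 13 tested cytoplasmic partners of protocadherins was called in either line.

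Marker genes moved in both directions, and their counts stand beside the same shares of all rows. These were 16.5% higher and 3.09% lower in PRC1CKO cells and 13.1% and 1.4% in PRC1CPM cells. The ESC markers were present in every condition, with Pou5f1 at means of 4734 and 3126 in PRC1CKO and 4540 and 3860 in PRC1CPM cells, and 3 of 9 fell in PRC1CKO cells (Sox2, Utf1 and Fgf4) and 1 in PRC1CPM cells (Fgf4). Their sums were 92669, 59069.5 and 67318, then 53526, 51583 and 59805 in PRC1CKO cells, and 79954, 55331 and 71343, then 71199, 40669.6 and 70018 in PRC1CPM cells, and Tdgf1 was the most abundant. Of 6 tested markers of primitive and definitive endoderm, 5 rose in PRC1CKO and 6 in PRC1CPM cells. Their summed normalised read count was 1734, 982 and 618, then 4273, 3275 and 3041 in PRC1CKO cells, and 813, 699 and 686, then 2252, 1481 and 1957 in PRC1CPM cells. Their most abundant gene was Pdgfra, and Afp was under the read minimum. Of 6 tested mesoderm markers 4 rose in each line, with sums of 496, 211 and 219.9, then 1047, 734 and 791 in PRC1CKO cells, and 515, 269.5 and 290.1, then 1181, 585 and 904 in PRC1CPM cells. Their most abundant gene was Kdr, and Mesp1 was under the read minimum. Of 8 tested neural markers 4 rose and 1 fell in PRC1CKO cells and 3 rose in PRC1CPM cells, with sums of 5126, 3294 and 3223, then 6249, 5033 and 5979 in PRC1CKO cells, and 4829, 4059.9 and 3993, then 7520.4, 4829 and 5312 in PRC1CPM cells. Map2 was the most abundant, and Dcx was under the read minimum. Of 6 tested fibroblast markers 2 rose in PRC1CKO and 1 in PRC1CPM cells, with sums of 6913, 2574 and 3348, then 6036, 4783 and 4978 in PRC1CKO cells, and 15627, 4129.6 and 5333, then 16712, 5437 and 7500.1 in PRC1CPM cells. The genes that rose were Pdgfra, which is also in the endoderm list, and, in PRC1CKO cells, Thy1. Col1a1, the most abundant, was not called, and Lum and Dcn were under the read minimum. Replicate 1 held the highest sum of the fibroblast markers in every condition, and the highest values of Pcdh7 and Pcdh18 as well. It also had the highest summed normalised read count over all rows in every condition. That sum was 1.41 and 1.09 times the mean of the other 2 replicates in untreated and OHT-treated PRC1CKO cells, and 1.25 and 1.31 times in PRC1CPM cells. Cdh1, Cdh2, Cdh13 and Pcdhga1 were likewise highest in replicate 1 of every condition. A link of the fibroblast markers with Pcdh7 and Pcdh18 was not tested. Of 5 tested trophoblast markers 3 rose in each line and 1 fell in PRC1CKO cells, with sums of 1930.5, 1832 and 1448, then 1881, 1499 and 1418 in PRC1CKO cells, and 1326, 1285 and 1139, then 2406, 1583 and 1780.0 in PRC1CPM cells. Eomes and Hand1, which rose in both lines, are also in the mesoderm list. Tfap2c was the most abundant, and Elf5 was under the read minimum. The markers under the read minimum had means of 7.90 or less in every condition, and no gene of these lists was at 0 in all libraries. In bulk libraries, a larger share of cells of another type and more RNA per cell cannot be told apart, and the part of other cell types in the changes above was not tested.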

How the data were processed

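Calibrated RNA-seq libraries were made from rRNA-depleted RNA of ESCs mixed with Drosophila SG4 cells and sequenced as 80 bp paired ends. Per the paper's methods and the submitters' processing notes, the authors removed rDNA reads with Bowtie2, aligned the rest to mm10 and dm6 with STAR and Bowtie2, counted reads over RefSeq gene bodies and ran DESeq2 with spike-in size factors corrected by matched gDNA-seq. The deposited signal values are these normalised read counts. Dividing by the value of 1 read gave whole reads for 100% of values in each library (tolerance 0.02). The deposited table also holds the authors' log2 fold changes and adjusted p-values, and a second file lists genes they selected from them; neither was used. Whether counting used strand is not given in the sources used here. The 12 gDNA-seq samples have no values in the table and were not analysed here.

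Each symbol was represented by its row with the largest summed value. limma 3.58.1 (R 4.3.3) was fitted to log2(normalised read count + 1) with 1 mean per condition over 12 libraries and a trended prior, so fold changes of low genes are understated. Rows with at least 10 reads in 3 libraries were tested, 16940 of 20633, and p-values were adjusted over all of them by the Benjamini-Hochberg method. Interactions were called at an adjusted p below 0.05 alone. Library totals ranged from 14668159 to 27016156 reads. Alternatives were TMM scaling, spike-in factors without gDNA-seq correction, edgeR 4.0.16 and DESeq2 1.42.0 on the recovered reads, pseudocounts of 0.1 and 4, other read minimums, no prior trend, fits of only 2 conditions, the replicate number as a block, and leaving out each library. Leaving out libraries for class medians and cluster stretches was added after the data were seen. Same-numbered libraries deviated together from their condition means with a correlation over 0.1 in 17 of 18 pairs (lowest 0.0988, mean 0.205), including all 3 pairs of each comparison between lines and of PRC1CPM cells, and all 12 libraries were closest to their own number; the labels do not say what a number marks. The fits were tested on simulated data. Values in every library were given for the type I cadherins, for up to 5 called genes per class with the largest change in PRC1CKO cells, and for the gene of each class with the most reads per kb in untreated cells; other genes were added after their values were seen. The genes and lists were chosen with earlier results of these data known.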

Additional observations from a re-analysis of the deposited data

How the results depend on the processing

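No called change of a named gene, class median of the change after OHT or ratio over the 5 summed cluster parts changed sign under the alternatives run, whereas single stretches of the gamma cluster did so in PRC1CPM cells. The median log2 fold change over all rows, 0.12 in PRC1CKO and 0.10 in PRC1CPM cells, was -0.0019 and -0.0072 on the TMM scale, -0.03 in PRC1CKO cells without gDNA-seq correction, and -0.04 in PRC1CPM cells without PRC1CPM OHT replicate 1. In PRC1CKO cells, of the 28 genes called higher, 20 were called in every fit that left out 1 library and 19 in every fit run; in PRC1CPM cells these were 18 and 16 of 22. Leaving out 1 library gave 21 to 46 genes called higher in PRC1CKO cells, beside 2016 to 3729 of all 16940 rows. It gave 0 to 1 lower there (326 to 674 of all rows). In PRC1CPM cells it gave 18 to 25 higher (1439 to 2547 of all rows) and 0 lower (123 to 339). Between untreated lines it gave 0 to 6 higher (170 to 1492 of all rows), and for the interaction 0 to 1 lower (1 to 28). Genes called lower in PRC1CKO cells numbered 2 on the TMM scale (1133 of all rows). They numbered 1 with edgeR, DESeq2, a pseudocount of 4, no prior trend, only 2 conditions, or no gDNA-seq correction. Over all rows these settings called 416 to 698 lower. Without gDNA-seq correction 35 were called higher in PRC1CPM cells, beside 3628 of all rows. The median of all rows was then 0.40 on the log2 scale. Between OHT-treated lines 3 were called lower on the TMM scale (261 of all rows) and 1 with only 2 conditions (141). Between untreated lines 1 was called higher on the TMM scale (745 of all rows), with edgeR (340) and with a pseudocount of 4 (380). On the TMM scale 1 was called lower (305 of all rows). The causes were not tested. Low counts limit the beta genes, of which 9 could not be tested.

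With the replicate block, 31 genes were called higher and 2 lower in PRC1CKO cells (3435 and 823 of 16940 rows). In PRC1CPM cells 26 were called higher (3033 rows). Between OHT-treated lines 1 was called higher and 3 lower (1131 and 232 rows). Between untreated lines 6 were called higher and 1 lower (1631 and 253 rows). For the interaction 4 were called lower, namely Pcdh19, Pcdh7, Cdh2 and Cdh11 (246 rows).

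Class medians on the log2 scale moved with the genes admitted. With at least 50 reads they were 1.42 for classical cadherins, 1.80 for other Cdh genes and 2.73 for alpha and beta genes in PRC1CKO cells. With no filter they were 0.87 for other Cdh genes, 1.74 for alpha and beta genes and 1.88 for non-clustered protocadherins in PRC1CKO cells, and 0.43 for other Cdh genes in PRC1CPM cells. For non-clustered protocadherins in PRC1CKO cells the median was 1.96 on the TMM scale and 1.93 without gDNA-seq correction. Leaving out 1 library gave, in PRC1CKO cells, 0.82 to 1.36 for classical cadherins, 1.38 to 1.70 for other Cdh genes, 1.97 to 2.55 for alpha and beta genes, 0.42 to 0.71 for gamma genes, 1.63 to 2.55 for non-clustered protocadherins and 0.66 to 1.03 for all tested genes. In PRC1CPM cells it gave 0.52 to 1.17 for classical cadherins, 1.08 to 1.47 for other Cdh genes, 1.80 to 2.16 for alpha and beta genes, 0.13 to 0.52 for gamma genes, 0.97 to 1.35 for non-clustered protocadherins and 0.33 to 0.78 for all tested genes.

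From recovered reads without scaling, log2 ratios in PRC1CPM cells were 0.62 from Pcdhga1 to Pcdhgc3 (0.29 on the deposited scale), 0.89 from Pcdhga1 to Pcdhga7 (0.59) and 0.82 from Pcdhgc3 to the end (0.49). They were 0.93 from Pcdhga1 to Pcdhga7 in PRC1CKO cells (0.82), and 2.09 and 2.21 from Pcdhac1 to Pcdhac2 in PRC1CKO and PRC1CPM cells. Leaving out 1 library, log2 ratios in PRC1CKO cells were 0.60 to 0.85 from Pcdhga1 to Pcdhgc3, 0.28 to 0.62 from Pcdhgc3 to the end, 0.71 to 0.93 from Pcdhga1 to Pcdhga7, 1.26 to 2.93 from Pcdhac1 to Pcdhac2 and 2.55 to 3.28 from Pcdhac2 to the end. In PRC1CPM cells they were 0.07 to 0.44 from Pcdhga1 to Pcdhgc3, 0.29 to 0.72 from Pcdhgc3 to the end, 0.41 to 0.72 from Pcdhga1 to Pcdhga7, 1.37 to 2.53 from Pcdhac1 to Pcdhac2 and 1.59 to 2.14 from Pcdhac2 to the end.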
